A study of Mus musculus with 16 samples.

Results

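Hepatocytes, the main cells of the liver, hold their identity through a small set of transcription factors, and 9 genes of that set are described here. They encode the nuclear receptor HNF4A (Hnf4a), the forkhead factors FOXA1, FOXA2 and FOXA3 (Foxa1, Foxa2, Foxa3), the cut-homeobox factor HNF6 (Onecut1), the bile acid receptor FXR (Nr1h4), the drug-sensing receptors PXR (Nr1i2) and CAR (Nr1i3), and the liver receptor homologue LRH-1 (Nr5a2). The genes were chosen by name, with earlier results of these data known. Every probe set with one of these symbols in the platform annotation was taken, whatever its values. A probe set is a group of short array probes that read the same transcript. All 9 genes were measured, out of 12393 gene symbols on the array, and they have 17 of the 22626 probe sets tested, with 4 for Hnf4a, 4 for Nr5a2, 2 each for Onecut1 and Nr1i2, and 1 for each of the other genes.

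Liver RNA of male FvB/n mice was measured on 16 Affymetrix arrays in 2 experiments of 8 arrays, which the study made to find genes of the integrated stress response, the program started when the translation factor eIF2 is phosphorylated. In the kinase experiment all mice carried TTR::Fv2E-PERK, in a line labelled as highly expressing. This transgene places the eIF2 kinase PERK, fused to drug-binding domains, under the transthyretin (Ttr) promoter, and the dimerizer AP20187 switches the kinase on. Of these arrays 4 came from untreated mice, which the series text describes as mock injected, and 4 from mice given AP20187. In the diet experiment wildtype mice and Alb::GC mice were fed a diet low in fat (LFD) or one high in fat (HFD), giving 4 groups of 2 arrays. Alb::GC expresses an active fragment of GADD34, which directs the removal of phosphate from eIF2, under the albumin promoter. Both promoters are active mainly in hepatocytes. For the dose of AP20187, the time after it, the ages and the length of the diets, no value was given in the sources used here. For 2 arrays the source name was unclear: it gave both genotypes for 1 LFD wildtype array (replicate 2) and no group for 1 AP20187 array (replicate 4), and their descriptions were followed. Leaving out that LFD wildtype array gave 2 calls among the 17 probe sets for diet in wildtype (4 with it), 5 in Alb::GC (4 with it), 7 for the averaged diet (8 with it) and 0 for genotype on HFD (1 with it). Leaving out that AP20187 array gave 11 calls, as with it. Whether the arrays of a group hold separate animals is not stated in the labels, so p-values reflect only how these samples vary, which may be technical spread.

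As background, HNF4A and the FOXA proteins bind many of the same liver enhancers, and HNF4A is required for the expression of apolipoproteins, clotting factors and metabolic enzymes. FXR is activated by bile acids and represses their synthesis from cholesterol, PXR and CAR are activated by foreign compounds and induce cytochromes P450 and transporters, and LRH-1 acts on bile acid synthesis and cholesterol transport. HNF6 acts in liver and pancreas development and stays on in hepatocytes and bile duct cells.

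Promoters of 4 of the 6 genes that rose after AP20187 are printed, to show how far their letters differ; for Nr5a2 the start whose window holds a match to the stress response motif was taken. Each is the 250 bases before a RefSeq transcription start, read 5′ to 3′ on the coding strand (build GRCm38.p6, all on the minus strand). Capitals mark matches to the motifs searched. The windows are chr10:89506659-89506908 for Nr1h4, chr16:38294825-38295074 for Nr1i2, chr1:136953631-136953880 for the second listed start of Nr5a2, and chr7:19023540-19023789 for Foxa3.
Nr1h4: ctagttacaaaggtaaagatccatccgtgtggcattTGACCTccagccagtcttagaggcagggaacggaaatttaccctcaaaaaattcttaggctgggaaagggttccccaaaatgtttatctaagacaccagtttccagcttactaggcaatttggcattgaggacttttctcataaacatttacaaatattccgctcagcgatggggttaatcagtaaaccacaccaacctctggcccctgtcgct
Nr1i2: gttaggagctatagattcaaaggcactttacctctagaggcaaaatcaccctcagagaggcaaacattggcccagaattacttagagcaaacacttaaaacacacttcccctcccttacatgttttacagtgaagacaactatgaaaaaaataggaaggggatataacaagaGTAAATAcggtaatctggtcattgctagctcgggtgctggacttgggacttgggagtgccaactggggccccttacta
Nr5a2: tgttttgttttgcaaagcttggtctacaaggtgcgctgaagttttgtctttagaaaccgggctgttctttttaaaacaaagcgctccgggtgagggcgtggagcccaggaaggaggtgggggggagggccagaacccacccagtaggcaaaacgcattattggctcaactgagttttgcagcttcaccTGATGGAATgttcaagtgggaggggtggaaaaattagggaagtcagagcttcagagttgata
Foxa3: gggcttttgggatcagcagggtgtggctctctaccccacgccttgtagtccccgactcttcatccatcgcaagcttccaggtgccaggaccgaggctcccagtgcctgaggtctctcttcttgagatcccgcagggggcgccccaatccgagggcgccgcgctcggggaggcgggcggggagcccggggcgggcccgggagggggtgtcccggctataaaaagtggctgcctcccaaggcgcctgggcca
The motifs were searched on both strands: CAAAGTCCA and AAAGTCCA for HNF4, AGGTCA for the core hexamer of nuclear receptors, TGTTTAC and TATTTAC for FOXA, ATCGAT and ATTGAT for ONECUT, GTTAATNAT and GTTAATGAT for HNF1, TGATGNAAT and TTGCATCA for the ATF4 and C/EBP composite site, TGACGTCA for the cyclic AMP response element and TTGCGCAA for C/EBP. Of these, AAAGTCCA lies inside CAAAGTCCA, and GTTAATGAT is also a case of GTTAATNAT. In Nr1h4 the capitals mark AGGTCA on the minus strand, a motif held by 14.0% of the 32851 promoters in the table. In Nr1i2 they mark TATTTAC on the minus strand, held by 2.73% of promoters. In Nr5a2 they mark TGATGNAAT, held by 0.816% of promoters and placed 62 bases before the start. The Foxa3 window holds no match and is 68.8% G and C, against a mean of 53.2% over all promoters. All 9 genes matched the table, with 13 starts. The other matches were ATTGAT in the first start of Hnf4a and in the first start of Foxa2 (6.72% of promoters), TGTTTAC in Foxa1 (3.17%), and AGGTCA and GTTAATNAT (0.737%) in the first start of Nr5a2. These letter matches are descriptions of the windows and not binding sites.

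The deposited value of a probe set on an array is a ratio around 1, and what it was taken against is not stated in the sources used here, so levels were not compared between genes or between the 2 experiments, and a ratio gives no detection call. Array medians lay between 0.94 and 1.02. Only RNA was measured, and protein was not. Where a result is given under a protein name such as FXR or HNF4A, the RNA of its gene is meant. Differences are given as log2 differences of (ratio + 0.05) with their standard error (SE), and folds are on that scale. Adjusted p-values come from limma with Benjamini-Hochberg adjustment over all 22626 probe sets, and a probe set was called where the adjusted p was under 0.05. In whole liver, fewer cells of a type and less RNA per cell cannot be told apart. The hepatocyte markers measured (6 of 8) were above 0 on all 16 arrays, which says nothing of their level. Their mean log2 ratio was 0.34 to 0.56 on untreated arrays and -0.15 to 0.10 on AP20187 arrays. In the diet experiment it was 0.28 to 0.35 in LFD wildtype, 0.02 to 0.16 in LFD Alb::GC, -0.14 to -0.08 in HFD wildtype and -0.29 to -0.19 in HFD Alb::GC.

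**Figure D1:**
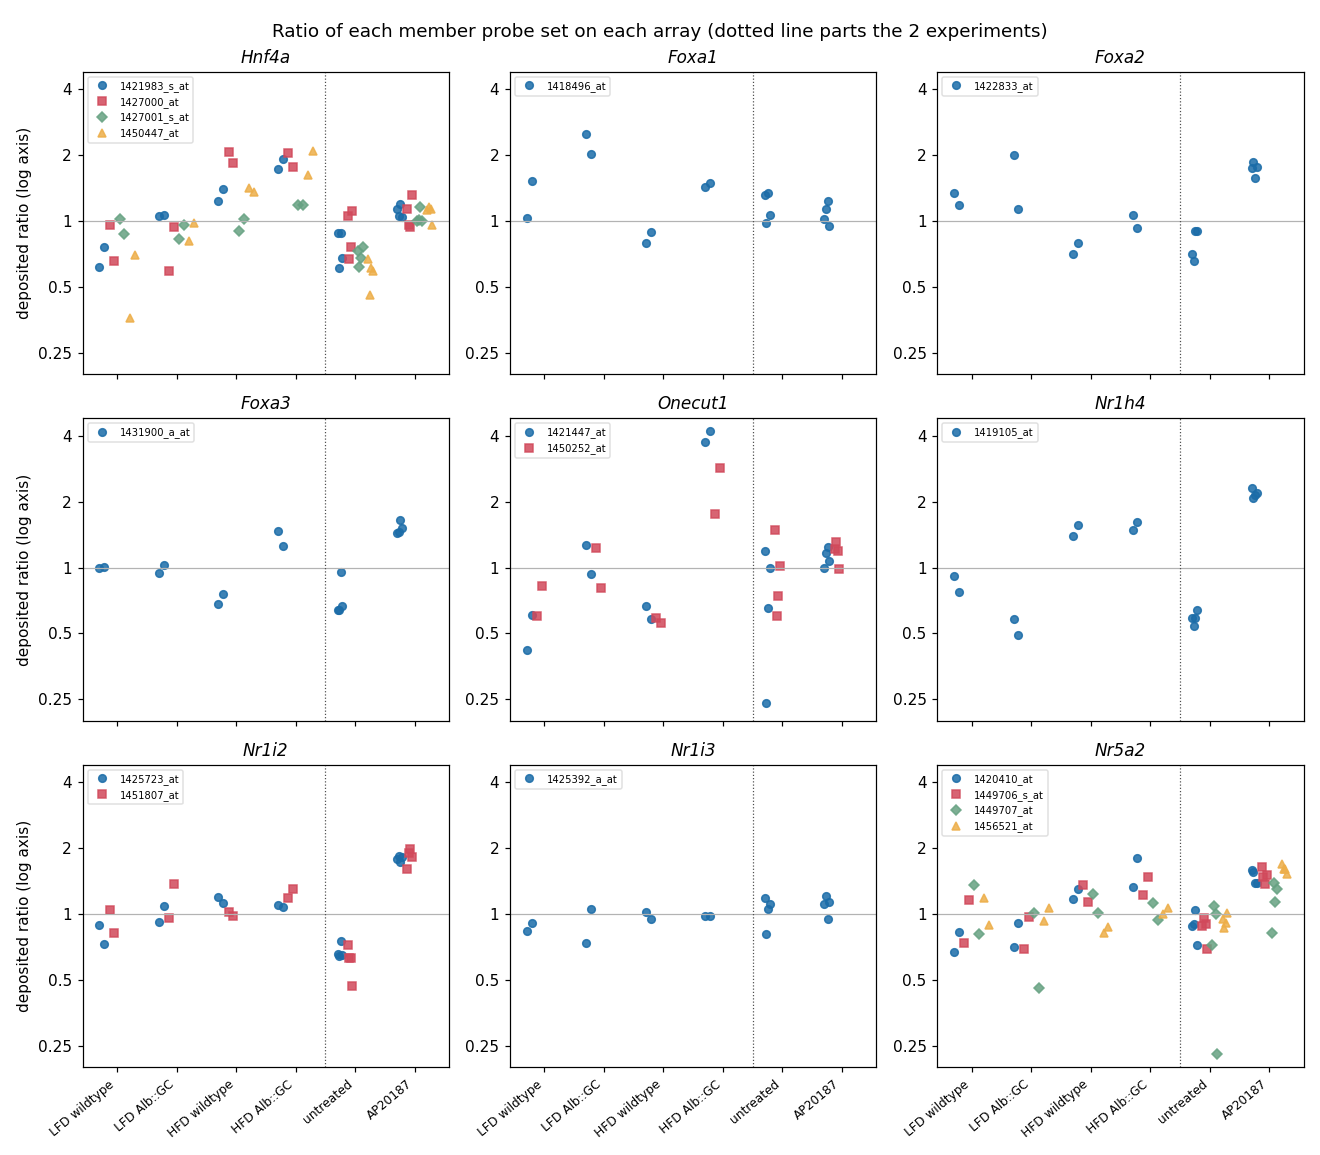
The deposited ratio of each of the 17 probe sets (vertical log axis) is drawn for each array of the 6 groups, with 1 panel per gene, 1 symbol per probe set, and a dotted line between the 2 experiments. The Nr1h4 points of AP20187 arrays sit between 2.08 and 2.31 above untreated points at 0.54 to 0.64, and the HFD Alb::GC points of Onecut1 stand above its other groups on both probe sets.

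After AP20187, RNA of 6 of the 9 genes rose, and more of their known target genes, induced or repressed, fell than rose. RNA of FXR and PXR rose most, that of FOXA2, FOXA3, LRH-1 and HNF4A rose less, and that of FOXA1, CAR and HNF6 did not pass the test. Of the 17 probe sets 11 were higher, from 6 genes, and none was lower (0 lower also at an unadjusted p under 0.05). Over all probe sets 13.7% were higher and 20.4% were lower (3107 and 4617), and under quantile normalization the counts were 3449 and 3473. The median log2 difference was 0.74 over the 17 probe sets and -0.13 over all probe sets. On each of these 11 the 4 AP20187 arrays all lay above the 4 untreated arrays. A called probe set tends to show such a gap, so this adds no support to the calls. The same count was not made over all probe sets.

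FXR gave the largest difference of the set. Nr1h4 read 0.59, 0.54, 0.59 and 0.64 on the untreated arrays and 2.31, 2.08, 2.15 and 2.19 on the AP20187 arrays. The groups were far apart, and each was tight. The log2 difference was 1.80 ± 0.08 (SE, n = 4 and 4), a 3.49-fold rise (limma adjusted p = 4.56e-05), and 1.74% of all probe sets had a difference at least as large.

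The 2 drug-sensing receptors parted. PXR was read by 2 probe sets. On 1425723_at, Nr1i2 read 0.66, 0.64, 0.75 and 0.65 untreated and 1.79, 1.84, 1.73 and 1.82 with AP20187. On 1451807_at it read 0.72, 0.63, 0.63 and 0.47 untreated and 1.61, 1.89, 1.98 and 1.83 with AP20187. Neither probe set overlapped between groups. Their log2 differences were 1.35 ± 0.08 and 1.51 ± 0.13 (limma adjusted p = 7.65e-05 and 0.000158). CAR, by contrast, overlapped: Nr1i3 read 1.18, 0.81, 1.05 and 1.11 untreated and 1.11, 1.21, 0.95 and 1.13 with AP20187. Its log2 difference was 0.09 ± 0.13, with a 95% interval from -0.22 to 0.39 (limma adjusted p = 0.665).

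LRH-1, which binds DNA as a monomer, rose on 3 of its 4 probe sets. On 1456521_at, its least variable probe set, Nr5a2 read 0.95, 0.86, 0.91 and 1.01 untreated and 1.70, 1.61, 1.61 and 1.53 with AP20187, with no overlap. The log2 difference was 0.76 ± 0.08 (limma adjusted p = 0.000269). The probe sets 1449706_s_at and 1420410_at gave 0.78 ± 0.11 and 0.71 ± 0.12 (limma adjusted p = 0.0014 and 0.0023). The fourth, 1449707_at, gave 0.74 ± 0.44 and did not pass (limma adjusted p = 0.242), with untreated ratios spread from 0.23 to 1.09 and AP20187 ratios from 0.82 to 1.38.

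HNF4A rose on 3 of its 4 probe sets, which differed in size. On 1450447_at, Hnf4a read 0.67, 0.46, 0.61 and 0.59 untreated and 1.12, 1.16, 1.14 and 0.96 with AP20187, a log2 difference of 0.86 ± 0.15 (limma adjusted p = 0.00329). On 1427001_s_at it read 0.73, 0.62, 0.68 and 0.76 untreated and 1.0, 1.01, 1.16 and 1.0 with AP20187, a difference of 0.55 ± 0.12 (limma adjusted p = 0.00851). The groups were apart on both. On 1421983_s_at the groups were also apart, with untreated ratios of 0.61 to 0.88 and AP20187 ratios of 1.04 to 1.20 (0.52 ± 0.14, limma adjusted p = 0.0235). That call was lost without untreated replicate 4 (adjusted p = 0.0536) and without AP20187 replicate 1, 2 or 3 (0.0624, 0.051 and 0.0565). On 1427000_at the groups overlapped, at 0.67 to 1.11 and 0.94 to 1.31 (0.28 ± 0.19, limma adjusted p = 0.303).

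The 3 FOXA paralogs, which open chromatin at liver enhancers, also parted. Foxa2 read 0.71, 0.66, 0.90 and 0.90 untreated and 1.75, 1.87, 1.58 and 1.76 with AP20187, a log2 difference of 1.10 ± 0.12 (limma adjusted p = 0.000374). Foxa3 read 0.64, 0.64, 0.95 and 0.67 untreated and 1.44, 1.45, 1.64 and 1.51 with AP20187, a difference of 1.03 ± 0.14 (limma adjusted p = 0.000856). Neither gene overlapped between groups. Foxa1 did overlap, at 1.32, 0.98, 1.35 and 1.07 untreated and 1.02, 1.14, 1.24 and 0.95 with AP20187. Its difference was -0.11 ± 0.13, with a 95% interval from -0.41 to 0.20 (limma adjusted p = 0.591), and its sign turned to 0.05 under quantile normalization.

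Within each array the gap between paralogs was compared, for 3 pairs chosen after their values were seen. The log2 gap of Foxa2 over Foxa1 was 0.66 ± 0.22 (SD, n = 4) on AP20187 arrays and -0.55 ± 0.25 (n = 4) on untreated arrays. For Foxa3 over Foxa1 it was 0.46 ± 0.13 and -0.67 ± 0.22, and for Nr1i2 over Nr1i3 it was 0.69 ± 0.10 and -0.57 ± 0.22. The pairs hold 1 gene that passed and 1 that did not, so these gaps describe the choice and carry no test. Because what each ratio was taken against is not stated, a gap is no difference in level.

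HNF6 was variable in the untreated group. On 1421447_at, Onecut1 read 1.19, 0.24, 0.65 and 1.0 untreated and 1.0, 1.17, 1.24 and 1.07 with AP20187. On 1450252_at it read 1.49, 0.60, 0.74 and 1.02 untreated and 1.22, 1.31, 1.19 and 0.98 with AP20187. Both overlapped, and neither passed (0.70 ± 0.42 and 0.35 ± 0.26, limma adjusted p = 0.247 and 0.353).

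Other factors of the same network moved in part with these genes (over all probe sets, 13.7% were higher and 20.4% lower). Each gene of a list was counted on its least variable probe set only. The shares and medians over all probe sets are thus not a like background for this list or the later ones. Of 11 measured partner factors 6 rose and none fell, with a median log2 difference of 0.51 (1 fell without AP20187 replicate 3 or untreated replicate 2, and in a fit over all 16 arrays). The largest were Prox1, a homeobox factor that holds LRH-1 and HNF4A in check (1.88 ± 0.18, limma adjusted p = 0.0002), the insulin-regulated forkhead factor Foxo1 (1.68 ± 0.09, with 0.35 to 1.60 on its other probe sets), the zinc finger factor Gata6 (1.47 ± 0.10) and Klf15, which acts on amino acid breakdown (0.77 ± 0.10). Of 24 other nuclear receptors 10 rose and 5 fell, led by the immediate early receptor Nr4a1 (2.77 ± 0.21), the clock receptors Rora (2.04 ± 0.17) and Nr1d2 (1.41 ± 0.17), and the oestrogen receptor Esr1 (1.07 ± 0.31, limma adjusted p = 0.0306). The 5 that fell became 1 under quantile normalization, and 1 to 3 without any array but untreated replicate 3 (1 without AP20187 replicate 2 or untreated replicate 4). Of 12 coregulators 7 rose and 1 fell: the corepressor Nrip1 (2.24 ± 0.37) and the acetyltransferase Crebbp (1.34 ± 0.21) rose, as did the coactivator Ncoa1 (0.72 ± 0.10), and the deacetylase Hdac3 fell by 0.99 ± 0.08. Over the 15 alternative settings the call of Esr1 was lost in 5 and that of Crebbp in 1.

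Among the known target genes more fell than rose (over all probe sets, 13.7% were higher and 20.4% lower). The lists do not part genes that a factor induces from genes that it represses. A fall is thus not by itself a move against the factor. Of 17 measured targets of HNF4A and FOXA 11 fell and 1 rose, with a median log2 difference of -0.46 against -0.13 over all probe sets, and under quantile normalization 8 fell, with a median of -0.26. The GABA transaminase Abat fell by 2.10 ± 0.21 (its other probe set gave -0.30), the urea cycle enzyme Otc fell by 1.49 ± 0.12, the clotting factor F9 fell by 0.63 ± 0.11, and Igfbp1, a secreted binder of insulin-like growth factors, rose by 1.59 ± 0.25. Of 14 FXR targets 6 fell and 1 rose (median -0.42, and -0.26 under quantile normalization, where 5 fell). The bile acid importer Slc10a1 fell by 1.24 ± 0.09, and the bile salt export pump Abcb11 fell by 1.02 ± 0.08. The phospholipid transporter Abcb4 rose by 1.09 ± 0.16. The lipoprotein gene Apoc2 fell by 1.03 ± 0.10.

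Targets of the drug-sensing receptors were split. Of 9 PXR targets 4 fell and 2 rose (median -0.26, from -0.46 to -0.14 over the alternatives and -0.16 without AP20187 replicate 3), with the conjugate exporter Abcc3 at -1.42 ± 0.16, the drug exporter Abcb1a up by 1.17 ± 0.17, and Cyp3a13 up by 0.65 ± 0.14. Of 11 CAR targets 4 rose and 4 fell, although CAR itself did not pass. Their median of -0.48 became -0.20, -0.15 and -0.27 without AP20187 replicate 1, AP20187 replicate 2 and untreated replicate 3. The cytochrome P450 gene Cyp2b10 rose by 3.06 ± 0.26 (limma adjusted p = 0.000131), the haem synthesis gene Alas1 rose by 1.31 ± 0.18, and the glutathione transferase Gstm1 fell by 1.36 ± 0.13. Of 10 LRH-1 targets 6 fell and 1 rose (median -0.38), and under quantile normalization 2 fell, with a median of -0.24. Without the fifth of probe sets with the lowest mean, where Igfbp1, Abcb4 and Pctp were not tested, none of the HNF4A and FOXA, FXR or LRH-1 targets rose. The phosphatidylcholine carrier Pctp rose by 1.74 ± 0.22, the apolipoprotein Apom fell by 1.45 ± 0.13, and the corepressor Nr0b2 (SHP), a target shared with FXR, fell by 0.80 ± 0.21 (limma adjusted p = 0.0209, lost in 3 of 15 alternative settings). The target lists share genes, so their counts are not independent.

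Markers of cell types also moved in this comparison (over all probe sets, 13.7% were higher and 20.4% lower). All 6 measured hepatocyte markers fell, by a median of 0.52 on the log2 scale. Albumin and transthyretin, whose promoters drive the transgenes of this series, were among them: Alb fell by 0.38 ± 0.08 and Ttr by 0.42 to 0.57 on 3 probe sets. Among other cells, 3 of 6 macrophage, 2 of 6 endothelial and 3 of 6 stellate and fibroblast markers fell, and none of these rose. The mean log2 ratio of the stellate and fibroblast markers was 0.67 to 0.84 on untreated arrays and -0.13 to 0.08 on AP20187 arrays. That of the endothelial markers was 0.22 to 0.35 and -0.08 to 0.04, and that of the macrophage markers 0.28 to 0.39 and -0.37 to 0.14. Of 5 cholangiocyte markers, with a median of -0.35, only Sox9 passed and rose (1.06 ± 0.18, with 0.20 on its other probe set). Of 4 exocrine pancreas markers Cela1 fell by 1.82 ± 0.14. None of 3 lymphocyte markers passed, the smallest p being that of Cd3e (-0.78 ± 0.45, limma adjusted p = 0.235). No marker was at 0. Their part in the differences of the 9 genes was not tested.

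**Figure D2:**
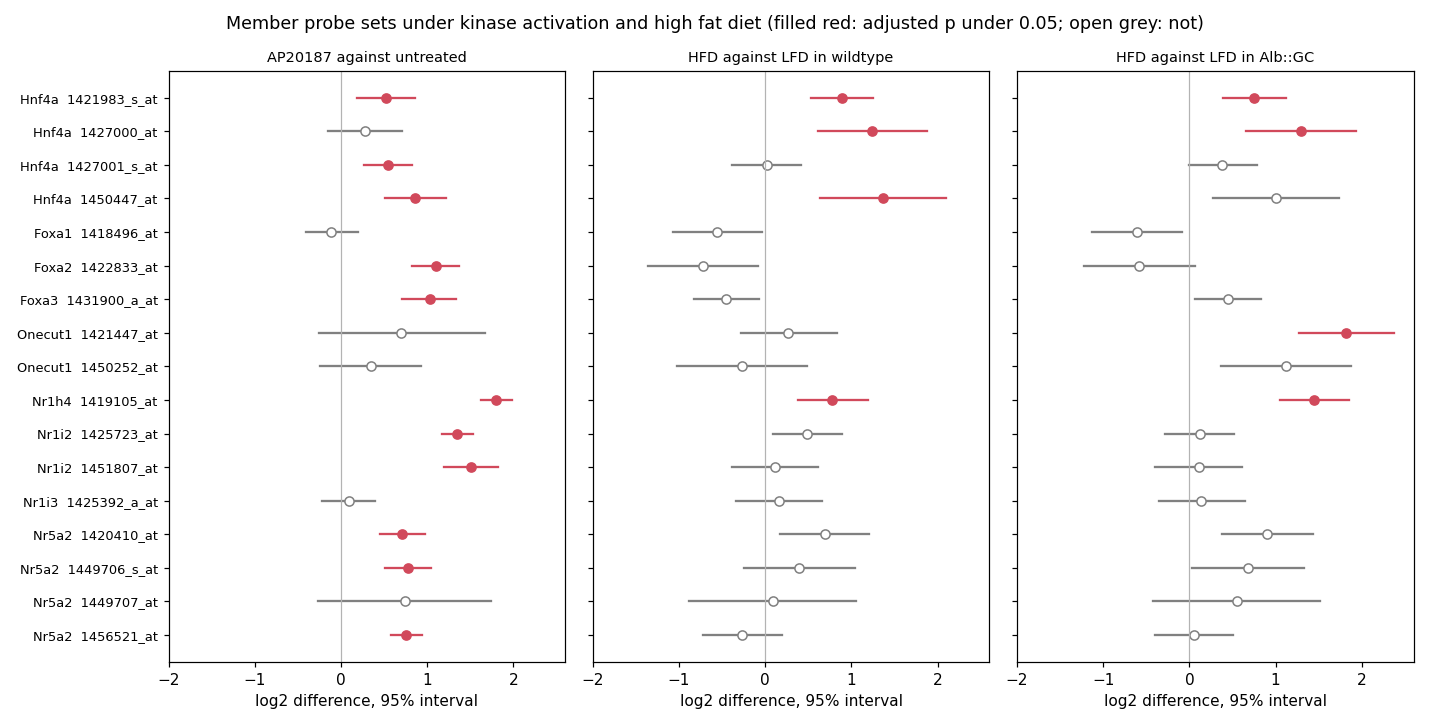
The log2 difference of each member probe set (point) with its 95% interval (line) is drawn for AP20187 against untreated and for HFD against LFD in each genotype, filled red where the adjusted p was under 0.05. Nr1h4 lies right of 0 and is filled in all 3 panels, Nr1i2 is filled after AP20187 and open in both diet panels, and Foxa1 is open throughout.

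On the high fat diet a smaller group rose: Hnf4a, Nr1h4, Nr5a2 on 1 probe set and, in Alb::GC mice, Onecut1. Foxa1 and Foxa2 were lower on the diet when both genotypes were averaged, and PXR and CAR did not pass. In wildtype mice 4 of 17 probe sets were higher, from 2 genes, and none was lower (over all probe sets, 7.97% higher and 6.63% lower). In Alb::GC mice 4 of 17 were higher, from 3 genes, and none was lower (4.64% and 2.13% over all). Averaged over genotypes 6 were higher and 2 lower (13.5% and 14.0% over all). The median log2 differences of the 17 were 0.16, 0.55 and 0.32, and those of all probe sets -0.11, -0.02 and -0.07. The averaged comparison uses the same arrays as the other 2, so it is no further evidence.

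HNF4A rose on 3 of its 4 probe sets. On 1421983_s_at, Hnf4a read 0.62 and 0.76 for LFD wildtype, 1.05 and 1.07 for Alb::GC on LFD, 1.24 and 1.40 for HFD wildtype, and 1.73 and 1.92 for Alb::GC on HFD. On 1427000_at the same groups read 0.96 and 0.66, 0.59 and 0.94, 2.07 and 1.85, and 2.05 and 1.77. On 1450447_at they read 0.36 and 0.70, 0.81 and 0.98, 1.41 and 1.36, and 1.62 and 2.08. On all 3 the HFD arrays lay above the LFD arrays without overlap. The averaged log2 differences were 0.82 ± 0.11, 1.27 ± 0.19 and 1.19 ± 0.21 (limma adjusted p = 0.00539, 0.00748 and 0.0129). The remaining probe set, 1427001_s_at, overlapped, with LFD ratios of 0.83 to 1.02 and HFD ratios of 0.90 to 1.18 (0.20 ± 0.12, limma adjusted p = 0.23). Probe sets of the gene thus differed, and this last is the least variable of the 4.

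Within wildtype mice 3 Hnf4a probe sets passed (0.89 ± 0.15, 1.24 ± 0.26 and 1.37 ± 0.30, limma adjusted p = 0.0184, 0.0316 and 0.0349). Within Alb::GC mice 1421983_s_at and 1427000_at passed (0.75 ± 0.15 and 1.30 ± 0.26, limma adjusted p = 0.0406 and 0.0421), while 1450447_at gave 1.0 ± 0.30 (limma adjusted p = 0.096). With 2 arrays a group these calls hung on single arrays. Without HFD wildtype replicate 1 or 2, all 3 wildtype calls were lost (adjusted p from 0.0766 to 0.134), and without LFD wildtype replicate 1 or 2, 2 calls (0.0517 and 0.0646) and 1 call (0.106). Without HFD Alb::GC replicate 1 or 2, the wildtype calls of 1427000_at and 1450447_at were lost (0.0538 to 0.058), as was that of 1450447_at without LFD Alb::GC replicate 1 or 2 (0.0538 and 0.055). Both Alb::GC calls of Hnf4a were lost without any of the 4 Alb::GC arrays or either HFD wildtype array (0.058 to 0.166).

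FXR rose in both genotypes. Nr1h4 read 0.91 and 0.77 for LFD wildtype, 0.58 and 0.49 for Alb::GC on LFD, 1.39 and 1.57 for HFD wildtype, and 1.48 and 1.61 for Alb::GC on HFD. The 2 HFD groups overlapped, and the 2 LFD groups did not overlap. The log2 difference was 0.78 ± 0.17 in wildtype (limma adjusted p = 0.0324), 1.45 ± 0.17 in Alb::GC (limma adjusted p = 0.0121) and 1.12 ± 0.12 averaged (limma adjusted p = 0.00339). The difference between genotypes in this response was 0.67 ± 0.24 and did not pass (limma adjusted p = 0.391). The wildtype call was lost without any of the 4 wildtype arrays (0.0562 to 0.161) or either HFD Alb::GC array (0.0649 and 0.0673), and the Alb::GC call without either HFD Alb::GC array (0.0655 and 0.0779).

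LRH-1 rose on 1 of 4 probe sets. On 1420410_at, Nr5a2 read 0.67 and 0.83 for LFD wildtype, 0.71 and 0.91 for Alb::GC on LFD, 1.17 and 1.30 for HFD wildtype, and 1.33 and 1.80 for Alb::GC on HFD. The diets did not overlap, and the averaged log2 difference was 0.80 ± 0.15 (limma adjusted p = 0.0155; 0.0528 without HFD wildtype replicate 2 and 0.0509 without HFD Alb::GC replicate 2). The other 3 probe sets gave 0.54 ± 0.19, 0.32 ± 0.28 and -0.11 ± 0.13 (limma adjusted p = 0.0798, 0.428 and 0.567). The least variable of them, 1456521_at, which had risen after AP20187, is the one at -0.11.

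Of the FOXA paralogs, Foxa1 and Foxa2 were called lower on the averaged diet, and Foxa3 was not called. Of the 17 member probe sets only these 2 were lower, near the share of 14.0% over all probe sets. Neither passed within a genotype. Foxa1 read 1.03 and 1.53 for LFD wildtype, 2.51 and 2.02 for Alb::GC on LFD, 0.79 and 0.89 for HFD wildtype, and 1.43 and 1.49 for Alb::GC on HFD. Within each genotype HFD arrays lay below LFD arrays, while across genotypes they overlapped, and the averaged difference was -0.58 ± 0.15 (limma adjusted p = 0.0356). Foxa2 read 1.34 and 1.19, 2.01 and 1.14, 0.71 and 0.79, and 1.07 and 0.93 in the same order, with no overlap between diets and a difference of -0.65 ± 0.19 (limma adjusted p = 0.0466). Both calls were fragile. That of Foxa1 was lost in 9 of 15 alternative settings, among them without any array but LFD wildtype replicate 1 (-0.66 to -0.45, adjusted p from 0.0526 to 0.121). That of Foxa2 was lost in 11 of 15, among them without any array but LFD Alb::GC replicate 2 (-0.70 to -0.45, adjusted p from 0.0686 to 0.118).

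Foxa3 moved in opposite directions in the 2 genotypes without passing the test in either. It read 0.99 and 1.01 for LFD wildtype, 0.94 and 1.03 for Alb::GC on LFD, 0.68 and 0.76 for HFD wildtype, and 1.47 and 1.26 for Alb::GC on HFD. The HFD groups lay below and above all LFD arrays. The log2 differences were -0.45 ± 0.16 in wildtype (limma adjusted p = 0.102) and 0.45 ± 0.16 in Alb::GC (limma adjusted p = 0.129), and the difference between them was 0.90 ± 0.22 (limma adjusted p = 0.25).

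PXR and CAR did not pass on the diet. On the diet arrays Nr1i2 read 0.73 to 1.19 on 1425723_at and 0.82 to 1.37 on 1451807_at, and Nr1i3 read 0.74 to 1.05. The averaged differences were 0.30 ± 0.12, 0.11 ± 0.15 and 0.15 ± 0.15 (limma adjusted p = 0.0999, 0.611 and 0.458). The 95% interval of Nr1i2 ran from 0.02 to 0.59 on 1425723_at and from -0.25 to 0.46 on 1451807_at, and that of Nr1i3 from -0.20 to 0.51. In wildtype mice Nr1i2 gave 0.49 ± 0.17 on 1425723_at, with HFD arrays above LFD arrays, and 0.11 ± 0.21 on 1451807_at (limma adjusted p = 0.0949 and 0.745). In Alb::GC mice these probe sets gave 0.12 ± 0.17 and 0.11 ± 0.21. The tests do not show that Nr1i2 or Nr1i3 was unchanged.

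Partner factors rose in part on the diet as well (over all probe sets, 13.5% were higher and 14.0% lower). Averaged over genotypes, 5 of 11 rose and 1 fell (median 0.47): Foxo1 (1.54 ± 0.14, with -0.48 to 0.96 on its other probe sets), Prox1 (1.19 ± 0.21), Cebpa (0.60 ± 0.15) and the glucose-sensing factor Mlxipl (0.55 ± 0.13). Of 24 other nuclear receptors 6 rose and 2 fell, led by the retinoic acid receptor Rara (2.78 ± 0.57), the fatty acid receptor Ppara (2.08 ± 0.40), Esr1 (1.85 ± 0.21) and Nr1d2 (1.56 ± 0.15). Of 12 coregulators 5 rose and none fell, among them Ncoa2 (1.28 ± 0.18) and the mitochondrial coactivators Ppargc1b (1.16 ± 0.25) and Ppargc1a (0.90 ± 0.15). Over 15 alternative settings the call was lost in 6 each for Cebpa and Mlxipl, in 5 for Ppargc1b, in 2 for Rara and in 1 for Ppargc1a. Leaving out 1 array changed the counts. The partner factors that rose became 3 of 11 without any HFD array or LFD wildtype replicate 2, and the other nuclear receptors that fell became 4 of 24 without LFD wildtype replicate 1. The coregulators that rose became 2 of 12 without HFD wildtype replicate 1 and 3 of 12 without HFD wildtype replicate 2 or the second replicate of either Alb::GC group.

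Averaged over genotypes, calls among the targets of the 9 genes went in both directions. Over all probe sets 13.5% were higher and 14.0% lower. The FXR counts were near the first share and under the second. The lists again mix induced and repressed genes. Of 17 HNF4A and FOXA targets 7 fell and 1 rose (median -0.35), with Igfbp1 down by 2.77 ± 0.29, the glucose-releasing enzyme G6pc down by 1.11 ± 0.14, and the gluconeogenic enzyme Pck1 up by 0.99 ± 0.20 (0.16 on its other probe set). The 1 that rose was lost without either HFD wildtype array or HFD Alb::GC replicate 2. The count that fell was 3 without HFD wildtype replicate 1 and 4 without HFD wildtype replicate 2 or any Alb::GC array. Of 14 FXR targets 2 rose and 1 fell. Cyp7a1, the rate-limiting enzyme of bile acid synthesis, rose by 1.91 ± 0.29, and the proteoglycan Sdc1 rose by 0.49 ± 0.11. Cyp8b1, a bile acid synthesis enzyme that makes cholic acid, fell by 0.77 ± 0.15. Of 9 PXR targets 3 rose and 1 fell, with the conjugate exporter Abcc2 at 2.09 ± 0.18 and Cyp3a13 at 1.74 ± 0.12. The 1 that fell was Cyp3a16 (-1.51 ± 0.38). Of 11 CAR targets 3 rose and 3 fell, with Cyp2b9 at 2.68 ± 0.25, Alas1 at 2.23 ± 0.30 and Gadd45b at -1.02 ± 0.19. Without the fifth of probe sets with the lowest mean, which leaves fewer genes tested, 4 CAR targets rose and none fell, and their median went from -0.05 to 1.09. With 1 prior variance 5 CAR targets rose, and with a fit over all 16 arrays 5 rose and 4 fell. No PXR target fell under quantile normalization, with the fit over all 16 arrays or without the fifth of probe sets with the lowest mean, and in the last 1 FXR target rose. Leaving out 1 array left 1 or 2 CAR targets lower, left 1 FXR target higher except without either LFD wildtype array, and left no PXR target lower except without HFD wildtype replicate 2. Over 15 alternative settings the call of Sdc1 was lost in 6 and that of Pck1 in 3. Of 10 LRH-1 targets 3 rose and 3 fell, with Pctp at 1.78 ± 0.26 and Apom at -0.85 ± 0.16.

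Marker genes and RNA controls moved with diet too (over all probe sets, 13.5% were higher and 14.0% lower). Of 6 hepatocyte markers 4 fell, which became 0 to 2 when 1 array was left out (0 without HFD wildtype replicate 1). Counts of the other cell types fell too when 1 array was left out, to 0 or 1 for both cholangiocyte and endothelial markers. Of 5 cholangiocyte markers 2 fell, Epcam (-0.89 ± 0.22) and Sox9 (-0.74 ± 0.20, with 2.63 on its other probe set). Of 4 exocrine pancreas markers 2 fell, Cela1 (-1.72 ± 0.13) and Ctrb1 (-1.42 ± 0.40), and of 6 endothelial markers 2 rose, Lyve1 (1.05 ± 0.22) and Oit3 (0.78 ± 0.21). Of 6 macrophage markers Cd5l rose (0.72 ± 0.14), of 6 stellate and fibroblast markers Col1a1 fell by 0.59 ± 0.16 (1.90 on its other probe set), and of 3 lymphocyte markers none passed, Cd79a being nearest (-0.86 ± 0.26, limma adjusted p = 0.0518). The log2 gap between 3′ and 5′ control probe sets, a sign of RNA integrity and labelling, was -0.16 to 0.21 for beta-actin on LFD arrays, -0.71 to -0.62 in HFD wildtype and -0.44 to -0.33 in HFD Alb::GC. For Gapdh it was 0.04 to 0.22 on LFD and -0.31 to -0.15 on HFD. In the kinase experiment both gaps lay between -0.18 and 0.19. Their part in the diet differences of the 9 genes, and in the disagreement between probe sets of Hnf4a, Nr5a2 and Onecut1, was not tested.

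**Figure D3:**
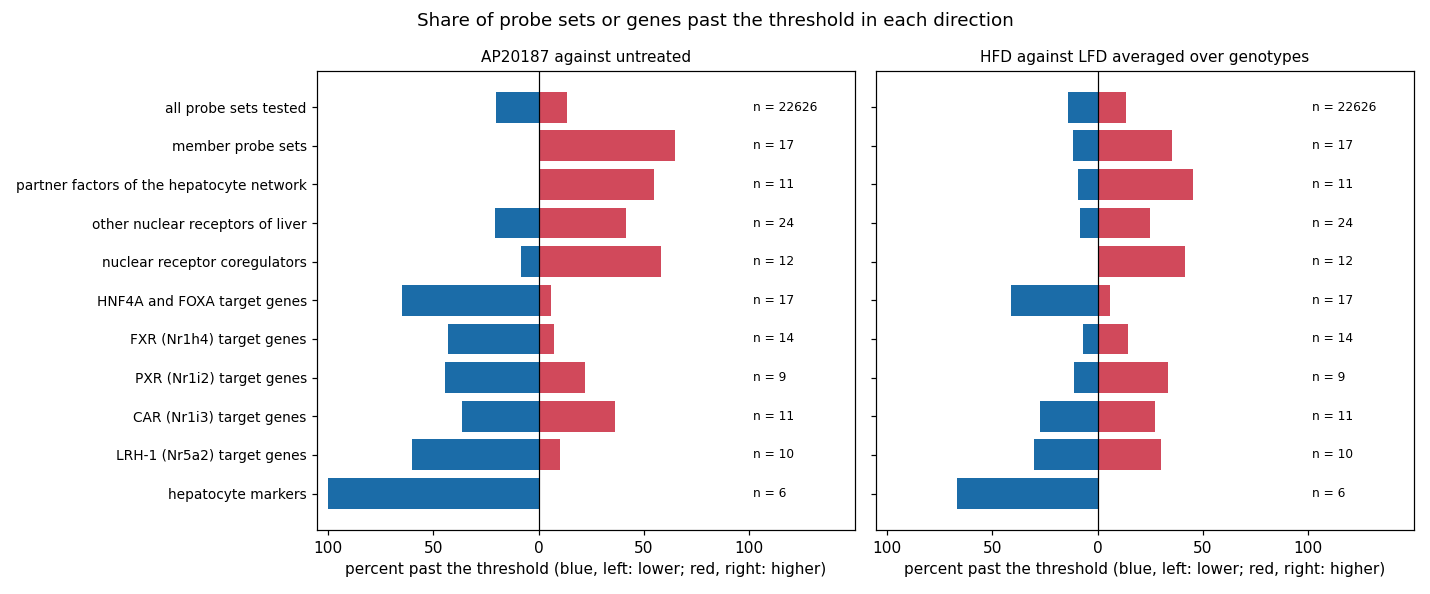
For AP20187 against untreated and for HFD against LFD averaged over genotypes, bars give the percent of each list's probe sets (first 2 bars) or genes that passed the threshold, lower to the left in blue and higher to the right in red, with the number measured at the right. Member probe sets and their partner factors extend mostly to the right, while the HNF4A and FOXA targets and the hepatocyte markers extend mostly to the left in both panels.

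Between genotypes HNF6 stood out. On the high fat diet Onecut1 was higher in Alb::GC than in wildtype mice on both probe sets and passed on 1, while on the low fat diet no member passed. On 1421447_at it read 0.42 and 0.61 for LFD wildtype, 1.27 and 0.93 for Alb::GC on LFD, 0.67 and 0.58 for HFD wildtype, and 3.75 and 4.19 for Alb::GC on HFD. On 1450252_at the same groups read 0.60 and 0.82, 1.23 and 0.81, 0.59 and 0.56, and 1.75 and 2.85. The HFD Alb::GC arrays were the highest of the 8 on both probe sets.

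On HFD the genotype difference of 1421447_at was 2.58 ± 0.23, a 5.96-fold higher value in Alb::GC (limma adjusted p = 0.044). It was the 1 member called of 17, where 0.0354% of all probe sets (8 of 22626) were called higher, and 0.164% of all probe sets had a difference at least as large. The other probe set gave 1.87 ± 0.31 (limma adjusted p = 0.0958). The size of 1421447_at ranged only from 2.27 to 2.67 over 15 alternatives, but the call was lost in 10 of them: without any 1 of the 8 arrays (adjusted p from 0.0699 to 0.224), with quantile normalization (0.136) and with 1 prior variance (0.0535). In the diet comparison within Alb::GC mice, which shares the HFD Alb::GC arrays, 1421447_at gave 1.82 ± 0.23 (limma adjusted p = 0.0157, and 0.058, 0.0772 and 0.0902 without LFD Alb::GC replicate 2 or HFD Alb::GC replicate 1 or 2) and 1450252_at gave 1.12 ± 0.31 (limma adjusted p = 0.0813). In wildtype mice the diet differences were 0.27 ± 0.23 and -0.27 ± 0.31, and neither passed (limma adjusted p = 0.437 and 0.584). The averaged diet difference was 1.05 ± 0.16 on 1421447_at (limma adjusted p = 0.00863), although the arrays of the 2 diets overlapped.

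HNF6 is also made by bile duct and pancreatic cells. The mean log2 ratio of 5 cholangiocyte markers was -1.12 to -0.87 in HFD wildtype and -0.42 to -0.24 in HFD Alb::GC, against -0.63 to -0.36 and -0.48 to 0.16 in the LFD groups. That of 4 exocrine pancreas markers was -1.71 to -1.29 in HFD wildtype, -0.90 to -0.61 in HFD Alb::GC and -0.30 to -0.15 on all 4 LFD arrays. Of these 4 pancreas markers only Cela1 passed between genotypes on HFD, and 3 did not pass (median log2 difference 0.49). Cela1 was higher in HFD Alb::GC than in HFD wildtype by 2.37 ± 0.19 (limma adjusted p = 0.044). No cholangiocyte marker passed, Sox9 being nearest (0.85 ± 0.28, limma adjusted p = 0.341). Their part in the Onecut1 difference was not tested.

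Other members gave values without passing. On LFD 0 of 17 probe sets were called, as were 0.0% of all 22626, with an unadjusted p under 0.05 in 5 of 17 and in 2337 of all, and a fit over all 16 arrays called 0 of 17 and 160 of all. Those 5 were Onecut1 1421447_at (1.03 ± 0.23), Foxa1 (0.82 ± 0.21), Hnf4a 1450447_at (0.76 ± 0.30) and 1421983_s_at (0.59 ± 0.15), and Nr1h4 (-0.61 ± 0.17), with limma adjusted p from 0.256 to 0.468. On HFD the next largest were Foxa3 (0.88 ± 0.16, limma adjusted p = 0.109) and Foxa1 (0.76 ± 0.21, limma adjusted p = 0.265). Foxa1 was thus higher in Alb::GC on all arrays of both diets, with no call. The genotype comparisons share no array with each other but share 1 spread.

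The interaction, the test of whether the diet response differed between genotypes, called 0 of 17 members and 0.0% of all probe sets, with an unadjusted p under 0.05 in 4 of 17 and in 2517 of all. With 1 prior variance it called 5 of all, and with a fit over all 16 arrays 212, and no member under either. The 4 members were Onecut1 on both probe sets (1.55 ± 0.32 and 1.39 ± 0.44, limma adjusted p = 0.205 and 0.343), Foxa3 (0.90 ± 0.22) and Nr1h4 (0.67 ± 0.24). A differing response of Onecut1 was thus not shown, although it passed in Alb::GC mice and not in wildtype mice. No gene of the partner, receptor, coregulator or target lists passed between genotypes on either diet or in the interaction. The nearest on HFD were the CAR targets Cyp2b9 and Cyp2b10, lower in Alb::GC (-2.35 ± 0.35 and -2.06 ± 0.32, limma adjusted p = 0.0832 and 0.0867).

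**Figure D4:**
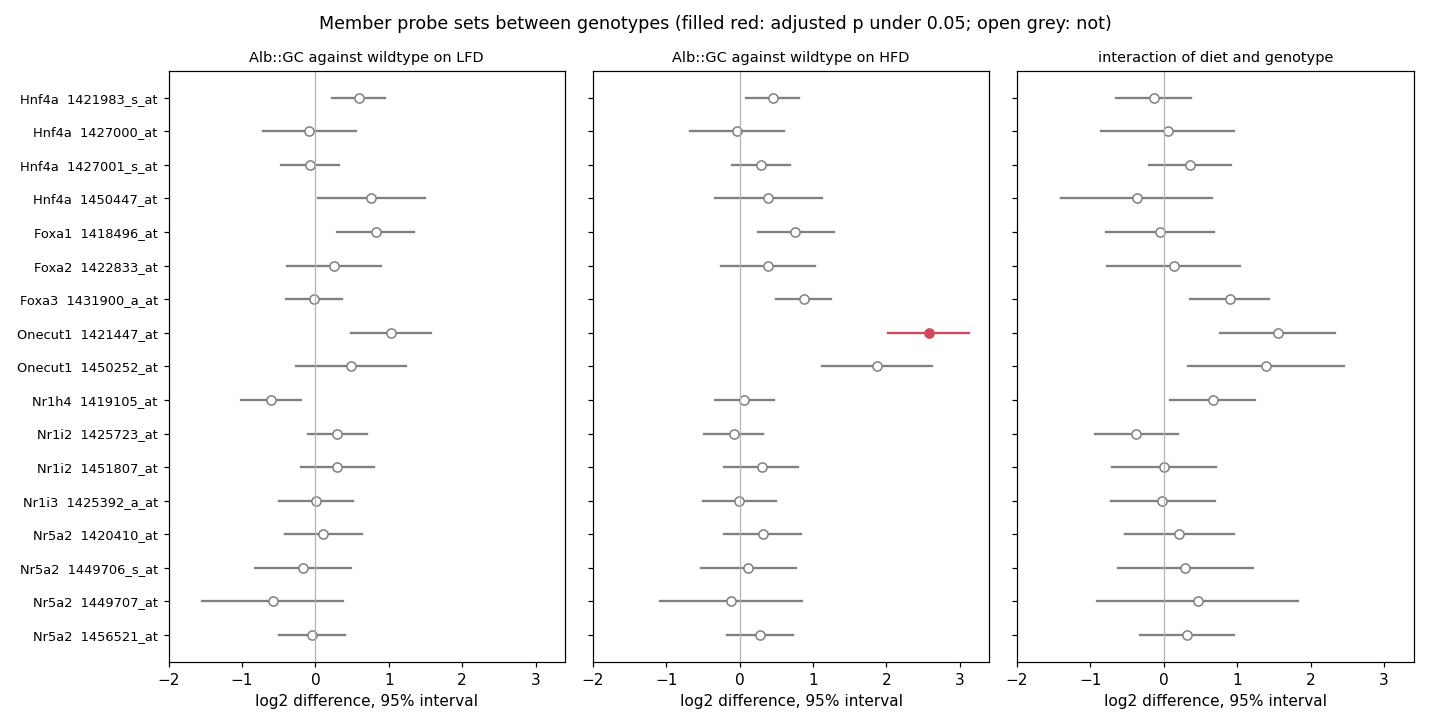
The log2 difference of each member probe set (point) with its 95% interval (line) is drawn for Alb::GC against wildtype on LFD and on HFD and for the interaction of diet and genotype, filled red where the adjusted p was under 0.05. Onecut1 1421447_at at 2.58 on HFD is the only filled point, and both Onecut1 probe sets lie right of 0 in all 3 panels.

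The genes whose pattern was most like each factor were listed by Pearson r over the 16 arrays after each experiment's mean was taken off, as a description in which the arrays share treatment and diet. For Nr1h4 they were the cell death gene Bid (r = 0.982) and the clock gene Per3 (0.981). For Nr1i2 they were Rcan1 and Chac1 (both 0.981), the second a glutathione-degrading enzyme of the stress response. For Nr5a2 on 1456521_at they were Gpbp1 (0.972) and the alanyl-tRNA synthetase Aars (0.971). For Hnf4a on 1427001_s_at they were the helicase Dhx15 (0.966) and Trim25 (0.962), for Foxa2 Fam13b (0.951) and Kbtbd2 (0.946), and for Foxa3 Dda1 (0.953) and the chromatin remodeller Chd7 (0.935). The factors without a call after AP20187 had lower best values: Foxa1 with Wwc1 (0.880) and Mrgpra1 (0.865), Onecut1 on 1450252_at with Aopep (0.856) and Ttc39b (0.804), and Nr1i3 with Slmap (0.821) and Amigo1 (0.793). The AP20187 difference was left in these values, so a called factor can match the many other probe sets that responded. This contrast thus follows from the calls and says nothing further of the factors.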

How the data were processed

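Total liver RNA was cleaned with RNeasy, labelled as biotinylated cRNA and hybridised to Affymetrix mouse arrays, per the labels' protocols. The values deposited by the authors are linear ratios around 1 per probe set and array, given to 2 decimals. The denominator of the ratio, the scanner software, the summary method and the scaling were not given in the sources used here, nor whether the 2 experiments share a scale. Precision is limited by the number of arrays.

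Of the probe sets, 64 controls were left out and 22626 were tested. Each experiment of 8 arrays had its own fit of log2(ratio + 0.05) in limma 3.58.1 (R 4.3.3; lmFit and eBayes with a mean-variance trend), with 6 residual degrees of freedom in the kinase experiment and 4 in the diet experiment. P-values were adjusted by Benjamini-Hochberg over all probe sets, and 0.05 was the threshold. The fit was tested on simulated data. Sample groups came from the sample descriptions, also for the 2 arrays whose source names are unclear. Passing genes named from a list were drawn from up to 4 with the largest change, and some of these were left out. Alb was also named, for its promoter. Each list gene was counted and named by its probe set with the smallest pooled within-group SD. For likeness the 2 genes with the highest r were named. The members, lists and motifs were chosen with earlier results of these data known. Alternatives were other offsets (0.01 and 0.25), quantile normalization, median centring, leaving out the 20% of probe sets with the lowest mean, 1 prior variance, 1 fit over 16 arrays, a threshold of 0.01, and leaving out each array. Gene symbols came from the platform annotation, which can be old.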

Additional observations from a re-analysis of the deposited data

Results flagged for a closer look

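In 2 of 34 sets of 4 arrays (17 probe sets, each in the 2 groups of the kinase experiment) 1 array stood far from the other 3, where chance gives about 1 in 20. For Hnf4a on 1427001_s_at an AP20187 array read 1.16, with the other 3 at 1.0 to 1.01. For Foxa3 an untreated array read 0.95, with the other 3 at 0.64 to 0.67. Both probe sets kept their call when any 1 array was left out.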

How the results depend on the processing

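After AP20187 the number of member probe sets past the threshold was 10 to 11 when 1 array was left out, 10 at a threshold of 0.01 and 11 otherwise. For the diet in wildtype mice it was 4, and became 7 with a fit over all 16 arrays, 0 at a threshold of 0.01, and 0 to 4 when 1 array was left out. For the diet in Alb::GC mice it was 4, and became 2 with 1 prior variance, 0 at a threshold of 0.01, and 0 to 5 when 1 array was left out. For the diet averaged over genotypes it was 8, and became 7 with offset 0.25, quantile normalization or median centring (Foxa2 lost in each), 7 without the lowest probe sets by mean (Foxa1 lost), 6 with 1 prior variance (both lost), 10 with a fit over all 16 arrays, 4 at a threshold of 0.01 and 5 to 7 when 1 array was left out. For the genotypes on the high fat diet it was 1, and became 0 with quantile normalization, 0 with 1 prior variance, 3 with a fit over all 16 arrays, 0 at a threshold of 0.01 and 0 to 0 when 1 array was left out. For the genotypes on the low fat diet and the interaction it was 0 under every alternative run. No called member value changed sign. Among values that did not pass, Foxa1 after AP20187 turned to 0.05 under quantile normalization, and Nr1i3 ranged from -0.02 to 0.15 when 1 array was left out. Over the averaged diet, Foxa3 turned to 0.01 (offset 0.25), 0.03 (quantile) and 0.04 (median centring), with -0.05 to 0.05 when 1 array was left out, and Nr1i2 on 1451807_at ranged from -0.02 to 0.23. The stricter threshold lowers counts by construction. The cause of the other changes was not tested. In the diet experiment, leaving out an array leaves a group with 1 array, which is then assumed to vary like the other groups. No paired analysis was possible because the groups share no replicate numbers in the labels. With 2 arrays a group, each call of a diet comparison within a genotype, and the genotype call, was lost without at least 1 single array, while 5 of the 8 averaged diet calls (3 Hnf4a probe sets, Nr1h4 and Onecut1 1421447_at) held without any 1 array. Deposited ratios hold no level or detection call.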
